A study of Mus musculus with 18 samples.

Results

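The genes described here are *Igf1*, its receptors and its binding proteins in mouse brown preadipocytes treated with FGF6. The 10 genes were taken by symbol from the count table of 48023 genes: the ligand *Igf1*, the receptors *Igf1r*, *Igf2r* and *Insr*, and the binding proteins *Igfbp2*, *Igfbp3*, *Igfbp4*, *Igfbp5*, *Igfbp6* and *Igfbp7*. All 10 were among the 15071 genes with enough reads to be tested. No measured value entered the choice of symbols by rule, although earlier results of these data were known when the group was proposed. The cells were a murine brown preadipocyte line immortalized with SV40 T antigen, kept undifferentiated in growth medium and given vehicle (Veh) or FGF6, a secreted fibroblast growth factor, at 200 ng/ml. RNA was sequenced after 4, 8 and 24 h, with 3 libraries in each of the 6 groups. Nothing in the labels says that the libraries came from separate cultures, so p-values measure only the spread between these samples, and all libraries came from 1 immortalized cell model.

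IGF-I is a growth factor that preadipocytes both secrete and respond to. It signals through the receptor tyrosine kinase encoded by *Igf1r*, and at high concentrations through the closely related insulin receptor. IGF binding proteins hold secreted IGFs in the medium, where they can withhold the ligand from the receptor or deliver it to the cell surface, and proteases such as pappalysin release the ligand by cutting them.

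The 18 libraries held 24327816 to 33471980 counted reads. Preadipocyte and stromal markers were present, with 9 of 10 at a mean of at least 1 CPM, the read count scaled to library size, and *Dlk1* at or below 3 counts in every library. Of 8 mature brown adipocyte markers only *Fabp4* and *Ppargc1a* reached that mean, and *Cidea*, *Lep* and *Cfd* stayed at or below 3 counts. The list sum at 24 h was 160 to 183 CPM in vehicle and 67.1 to 73.0 CPM in FGF6. *Fabp4* made up most of it, at 160.1 and 66.9 CPM. *Adipoq*, *Plin1*, *Fabp4* and *Ppargc1a* were lower in FGF6 at 24 h. *Ucp1* went the other way: it held 17 to 25 reads (0.739 CPM) in FGF6 at 24 h and no read in any other group. Of 4 macrophage and leukocyte markers, *Ptprc* and *Adgre1* were at or below 3 counts, while *Cd68* (11.1 and 16.5 CPM at 4 h, 5.83 and 3.24 CPM at 24 h, vehicle and FGF6) and *Csf1r* (3.65 and 1.41 CPM, then 1.32 and 0.376 CPM) were present, and their list summed to 14.2 to 15.2 CPM in vehicle and 17.6 to 18.4 CPM in FGF6 at 4 h, and to 6.39 to 7.92 CPM in vehicle and 3.32 to 3.97 CPM in FGF6 at 24 h. Of 4 skeletal muscle markers, 2 reached a mean of 1 CPM, with *Myog* at 3.57 CPM in vehicle and 0.364 CPM in FGF6 at 24 h, and their list summed to 5.85 to 6.77 CPM and 1.6 to 2.13 CPM. The 4 endothelial markers summed to 0.965 to 1.3 CPM in vehicle and 3.71 to 5.65 CPM in FGF6 at 24 h. Most of that rise was *Cdh5*, at a mean of 0.0582 CPM in vehicle and 3.59 CPM in FGF6. *Kdr* was not called at 24 h (adjusted p = 0.281, edgeR), and *Pecam1* and *Tek* had too few reads to be tested. The 9 stromal markers that could be tested were not level between groups: their list summed to 5340 to 5650 CPM in vehicle at 24 h and 2040 to 2090 CPM in FGF6 at 24 h, with *Col1a1* at 3107 and 443 CPM. Of those 9, 7 were lower and 2 higher at 24 h, and the part of these marker shifts in the IGF results was not tested. Replicate 3 of vehicle at 24 h stood apart from its group, with a chi-square per degree of freedom of 35.7 and 39.2 against replicates 1 and 2, where the other within-group pairs lay between 2.37 and 7.35.

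Promoter sequence is shown for 3 binding proteins, *Igfbp4*, *Igfbp7* and *Igfbp3*, which were lower in FGF6 at all 3 times and whose 150 bases before the start hold no exonic base of the gene. The sequences are from RefSeq (GRCm38.p6), read 5′ to 3′ on the strand of the gene, and capitals mark a match to a searched motif. They lie at chr11:99041094-99041243 on the plus strand for *Igfbp4*, chr5:77408046-77408195 on the minus strand for *Igfbp7* and chr11:7213924-7214073 on the minus strand for *Igfbp3*.

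Igfbp4: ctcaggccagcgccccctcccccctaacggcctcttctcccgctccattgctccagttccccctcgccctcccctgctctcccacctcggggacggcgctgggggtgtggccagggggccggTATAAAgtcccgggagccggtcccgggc

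Igfbp7: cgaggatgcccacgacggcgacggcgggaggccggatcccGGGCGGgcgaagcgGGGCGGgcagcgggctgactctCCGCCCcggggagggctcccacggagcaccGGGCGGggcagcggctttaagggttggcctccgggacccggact

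Igfbp3: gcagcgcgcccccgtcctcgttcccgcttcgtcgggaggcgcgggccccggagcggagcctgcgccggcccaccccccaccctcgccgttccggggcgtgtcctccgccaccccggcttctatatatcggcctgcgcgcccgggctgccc

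In the *Igfbp4* window the capitals spell TATAAA, 28 to 23 bases before the start. In the *Igfbp7* window they mark 4 copies of GGGCGG, read on either strand (CCGCCC on the other). The *Igfbp3* window held no exact match to the motifs searched, and variants of their letters were not searched. Windows of 250 bases before the start were searched on both strands for the TATA box (TATAAA), the CCAAT box, the GC box (GGGCGG), the AP-1 site (TGACTCA), the cyclic AMP element (TGACGTCA), a forkhead site (GTAAACA), an ETS site (CCGGAAG) and the E-box (CACGTG). No 2 of these matches overlapped in the windows shown. RefSeq windows were matched for 9 of the 10 genes, all but *Insr*, with an alternative start for *Igfbp2*. TATAAA was found in 2 of the 10 windows (*Igfbp4*, *Igfbp6*) and in 12.4% of all 32851 windows. GGGCGG was found in 4 (*Igf1r*, *Igf2r*, *Igfbp7* and 1 of the *Igfbp2* windows) and in 32.7% of all windows, and CCAAT in 2 (*Igf1*, *Igfbp6*) and in 33.8%. CACGTG was found in *Igf2r* and 1 *Igfbp2* window (6.02% of all windows) and TGACTCA in the other *Igfbp2* window (4.46%). Exons of the gene itself cover all 150 bases before the start in the *Igf1* window. They also cover 65 of the 150 in the *Igfbp2* window with TGACTCA and 19 in the *Igfbp5* window. The cyclic AMP element, the forkhead site and the ETS site were in none of the 10, against 1.55%, 3.17% and 6.91% of all windows. These windows were GC-rich, at 69.2% for *Igfbp4*, 74.0% for *Igfbp7* and 73.2% for *Igfbp3*, against a median of 52.4% over all windows. A match describes letters only.

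FGF6 lowered *Igf1* and most binding proteins and left the receptors close to their vehicle levels. At 4 h, 5 of the 10 genes were lower and 2 higher (edgeR's quasi-likelihood test, Benjamini-Hochberg adjusted p under 0.05, as in all calls here), where 34.2% and 28.6% of all tested genes were lower and higher. At 8 h, 6 were lower (38.4% of all genes) and 3 higher (32.4%). At 24 h, 5 were lower (37.9%) and 1 higher (35.9%). Of the 10 genes, 3 were at least 2-fold lower at 4 h (6.38% of all genes), 4 at 8 h (10.9%) and 4 at 24 h (15.3%). The median log2 fold change over the 10 genes was -0.20, -0.24 and -0.66 at 4, 8 and 24 h, against -0.05, -0.05 and -0.02 over all genes tested. These counts describe the group and are not a test of it.

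**Figure D1:**
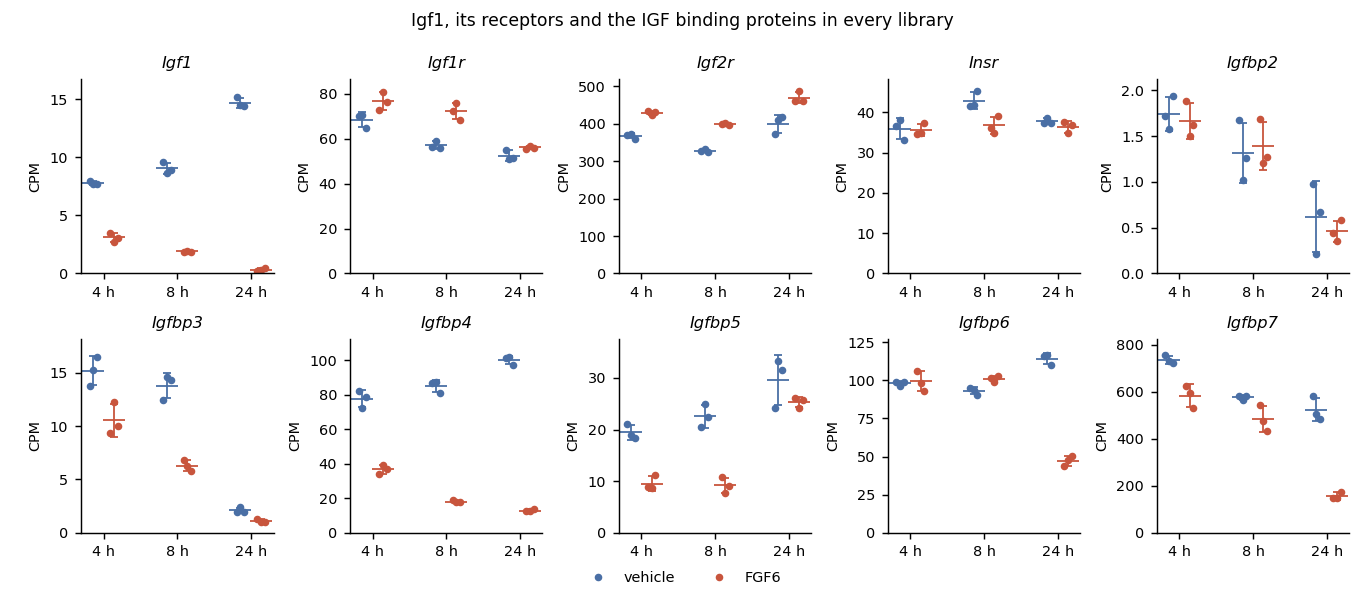
CPM (library-size-scaled counts, y axis from 0, a different scale in each panel) of the 10 genes in every library at 4, 8 and 24 h, vehicle in blue and FGF6 in red. Horizontal marks and bars give the mean and SD of 3 libraries. *Igf1* and *Igfbp4* separate further at each time, *Igfbp6* and *Igfbp7* separate mainly at 24 h, and the *Igfbp2* groups overlap throughout.

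*Igf1* (ENSMUSG00000020053, chr10:87858265-87937042, plus strand, GRCm38), the ligand, had the lowest fold change of the 10 at each time, although at 8 h its log2 fold change (-2.25, SE 0.114) and that of *Igfbp4* (-2.23, SE 0.058) were within their errors. Vehicle libraries held 8.01, 7.70 and 7.71 CPM at 4 h, and FGF6 libraries 3.51, 2.74 and 3.09 CPM. At 8 h they held 9.60, 8.68 and 8.93 CPM against 1.89, 1.92 and 1.89 CPM. At 24 h they held 15.2, 14.5 and 14.4 CPM against 0.255, 0.286 and 0.477 CPM. The groups did not overlap at any time, and the FGF6 libraries at 24 h rested on 7, 8 and 13 reads of *Igf1* against 343 to 481 in vehicle. The log2 fold change was -1.33 at 4 h (SE 0.106, adjusted p = 4.65e-11), -2.25 at 8 h (SE 0.114, adjusted p = 3.01e-15) and -5.42 at 24 h (SE 0.151, adjusted p = 9.02e-21), or 2.52-, 4.77- and 42.9-fold lower. Both arms moved apart: from 4 to 24 h *Igf1* rose 1.88-fold in vehicle (adjusted p = 1.25e-09) and was 9.05-fold lower in FGF6 (adjusted p = 1.92e-13), by edgeR. The second ligand *Igf2*, a growth factor that also binds *Igf1r*, was lower at all 3 times, by -0.21, -0.78 and -2.60 on the log2 scale. Its libraries at 24 h held 18.5, 21.4 and 19.5 CPM in vehicle and 3.32, 3.11 and 3.38 CPM in FGF6, with no overlap. *Ins1* and *Ins2*, which encode insulin, had no read in any library, which is compatible with an expected count of up to about 3 reads in each.

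**Figure D2:**
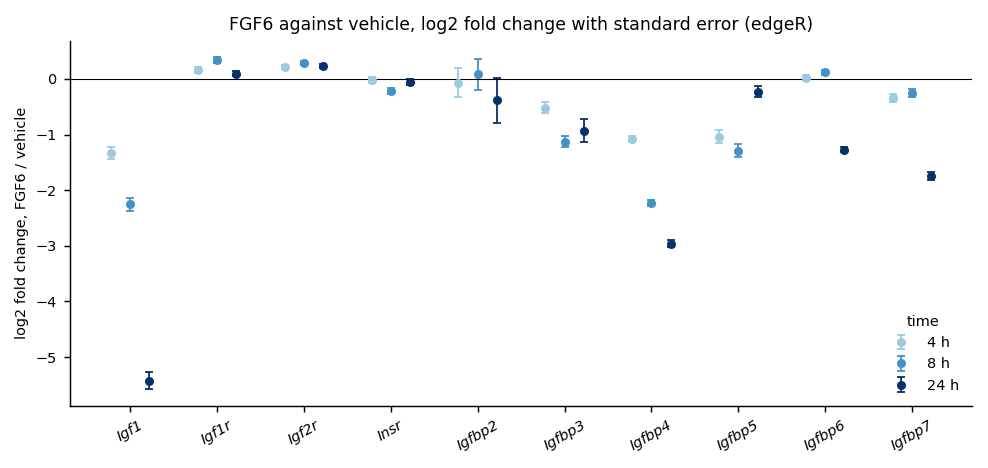
Log2 fold change of FGF6 against vehicle (y axis) for each of the 10 genes (x axis) at 4 h (light), 8 h (mid) and 24 h (dark blue), with bars of 1 standard error from edgeR. *Igf1* goes from -1.33 to -5.42 and *Igfbp4* from -1.08 to -2.96, *Igfbp5* is near 0 only at 24 h, and the 3 receptors lie between -0.22 and 0.34.

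The receptor genes moved by at most 1.27-fold at every time. *Igf1r* (ENSMUSG00000005533, chr7:67952827-68233668, plus strand) held 70.1, 70.7 and 64.8 CPM in vehicle at 4 h and 72.9, 80.8 and 76.2 CPM in FGF6. At 8 h it held 56.2, 59.2 and 55.9 CPM against 72.5, 75.9 and 68.5 CPM. At 24 h it held 55.2, 51.1 and 51.2 CPM against 55.4, 56.9 and 56.0 CPM. The FGF6 libraries were above the vehicle libraries at all 3 times, by a margin at 24 h that was small beside the spread of vehicle. In the fit, *Igf1r* was higher at 4 h (log2 0.16, adjusted p = 0.00425) and at 8 h (log2 0.34, adjusted p = 6.28e-07) by edgeR, and the 24 h value did not pass (log2 0.10, SE 0.0491, adjusted p = 0.0803). The 4 h call was lost when libraries were scaled by their totals alone (log2 0.06, adjusted p = 0.292), and the 24 h value passed with RLE factors (adjusted p = 0.039), with DESeq2 (adjusted p = 0.0404) and without FGF6 replicate 1, FGF6 replicate 3 or vehicle replicate 1 (log2 0.15, 0.14 and 0.18). Both arms had less *Igf1r* at 24 h than at 4 h, by -0.38 in vehicle and -0.45 in FGF6 on the log2 scale.

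*Igf2r* (ENSMUSG00000023830, chr17:12682406-12769664, minus strand), the mannose 6-phosphate receptor that takes up and degrades IGF-II, was the receptor gene with the most reads. It held 371, 371 and 360.0 CPM in vehicle at 4 h and 434, 422 and 429.9 CPM in FGF6. At 24 h it held 372, 409 and 417 CPM against 460.1, 486 and 462 CPM. The groups did not overlap, also at 8 h, where vehicle lay between 325 and 332 CPM and FGF6 between 397 and 402 CPM. FGF6 raised it by 0.22, 0.28 and 0.23 on the log2 scale at 4, 8 and 24 h (adjusted p = 5.85e-06, 1.1e-07 and 1.92e-06, edgeR), and no difference between these effects passed.

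*Insr* (ENSMUSG00000005534, chr8:3122061-3279617, minus strand), the insulin receptor, was lower in FGF6 only at 8 h among the times tested. Vehicle libraries held 41.6, 41.9 and 45.4 CPM at 8 h and FGF6 libraries 36.3, 35.0 and 39.2 CPM, which did not overlap (log2 -0.22, adjusted p = 0.000751, edgeR). At 4 h the vehicle libraries spanned 33.2 to 38.1 CPM and the FGF6 libraries 34.5 to 37.5 CPM. At 24 h they spanned 37.4 to 38.7 and 34.8 to 37.6 CPM, and the groups overlapped at both times (adjusted p = 0.831 and 0.389). The related orphan receptor gene *Insrr*, with 0 reads in the 3 FGF6 libraries at 24 h and 6 to 12 in vehicle, had too few reads to be tested.

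Among binding proteins, *Igfbp4* (ENSMUSG00000017493, chr11:99041244-99054392, plus strand) was lowered furthest at 8 and 24 h. At 4 h its log2 fold change (-1.08) and that of *Igfbp5* (-1.04, SE 0.121) were within their errors. *Igfbp4* encodes a binding protein known mainly as an inhibitor of IGF action, whose cleavage by pappalysin frees the ligand. At 4 h the vehicle libraries held 82.0, 72.5 and 78.7 CPM and the FGF6 libraries 33.9, 39.3 and 37.1 CPM. At 8 h they held 86.5, 87.2 and 80.9 CPM against 18.8, 17.7 and 17.6 CPM. At 24 h they held 101, 102 and 97.1 CPM against 12.5, 12.4 and 13.7 CPM. Every FGF6 library lay below every vehicle library by a wide margin, and replicates of a group differed little. The log2 fold change was -1.08 (SE 0.0537), -2.23 (SE 0.058) and -2.96 (SE 0.0609) at 4, 8 and 24 h, with adjusted p = 4.36e-15, 3.66e-21 and 1.83e-23 by edgeR. Vehicle cells gained *Igfbp4* from 4 to 24 h (log2 0.36, adjusted p = 7.16e-07, edgeR), while FGF6 cells lost it (log2 -1.52, adjusted p = 8.92e-17, edgeR).

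*Igfbp3* (ENSMUSG00000020427, chr11:7206086-7213923, minus strand), the main IGF carrier of plasma, differed more between times than between treatments. It held 13.8, 15.3 and 16.5 CPM in vehicle at 4 h and 9.36, 12.3 and 10.04 CPM in FGF6. At 8 h it held 12.5, 14.6 and 14.3 CPM against 6.84, 6.22 and 5.84 CPM. At 24 h it held 2.00, 2.38 and 1.93 CPM against 1.28, 1.04 and 1.03 CPM. Groups did not overlap at any time, and both arms were far lower at 24 h than before. The log2 fold change by FGF6 was -0.52, -1.13 and -0.93 (adjusted p = 5.74e-05, 6.54e-10 and 0.000192, edgeR). From 4 to 24 h *Igfbp3* dropped 7.13-fold in vehicle (adjusted p = 8.47e-16, edgeR) and 9.5-fold in FGF6 (adjusted p = 6.07e-16, edgeR).

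*Igfbp5* (ENSMUSG00000026185, chr1:72857932-72874884, minus strand), which binds matrix as well as IGFs, was lower at 4 and 8 h and then close to vehicle at 24 h. It held 21.1, 18.9 and 18.3 CPM in vehicle at 4 h and 8.91, 8.61 and 11.1 CPM in FGF6. At 8 h it held 20.4, 24.9 and 22.4 CPM against 10.7, 7.73 and 9.12 CPM. At 24 h it held 24.1, 33.3 and 31.5 CPM against 26.0, 24.2 and 25.8 CPM. The groups were separate at 4 and 8 h and overlapped at 24 h, where 1 vehicle library was below the FGF6 libraries and the other two were above. On the log2 scale the change was -1.04 (adjusted p = 4.3e-08), -1.29 (adjusted p = 4.54e-10) and -0.23 (SE 0.102, adjusted p = 0.0504) by edgeR. The effect at 24 h differed from that at 8 h by 1.07 (adjusted p = 4.49e-06, edgeR interaction), and FGF6 cells gained *Igfbp5* 2.67-fold from 4 to 24 h. The 24 h value sits at the threshold and passed without vehicle replicate 1 (log2 -0.31, adjusted p = 0.00498), with no filter (adjusted p = 0.00133), with a minimum of 10 counts (adjusted p = 0.0399), with library totals alone (adjusted p = 0.0416) and with the 24 h libraries alone (adjusted p = 0.0291). Without the vehicle replicate 3 that stood apart it was -0.14 (adjusted p = 0.259).

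*Igfbp6* (ENSMUSG00000023046, chr15:102144362-102149511, plus strand), which prefers IGF-II, was lowered only at 24 h among the times tested. It held 98.9, 96.4 and 98.5 CPM in vehicle at 4 h and 106, 98.5 and 93.1 CPM in FGF6. At 8 h it held 95.0, 93.5 and 90.5 CPM against 102, 98.99 and 103 CPM. At 24 h it held 116, 116 and 109.9 CPM against 43.8, 47.5 and 50.4 CPM. The groups overlapped at 4 h, stood just apart at 8 h with FGF6 above, and were far apart at 24 h with FGF6 below. Against vehicle the log2 change was 0.020 (adjusted p = 0.727), 0.12 (adjusted p = 0.0188) and -1.27 (SE 0.0467, adjusted p = 2.9e-18) by edgeR. The rise at 8 h was lost with library totals alone (log2 0.06, adjusted p = 0.287) and without vehicle replicate 3 of 8 h (log2 0.10, adjusted p = 0.0774).

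*Igfbp7* (ENSMUSG00000036256, chr5:77349240-77408041, minus strand) encodes a secreted relative that binds IGFs weakly and was the binding protein gene with the most reads. It held 756, 729 and 722 CPM in vehicle at 4 h and 626, 593 and 531 CPM in FGF6. At 8 h it held 583, 565 and 580.2 CPM against 543, 475 and 434 CPM. At 24 h it held 581, 505 and 486 CPM against 148, 148 and 174 CPM. FGF6 libraries were below vehicle libraries at every time, narrowly at 8 h. The change on the log2 scale was -0.33 (adjusted p = 2.0e-04), -0.25 (adjusted p = 0.00275) and -1.74 (SE 0.0735, adjusted p = 5.21e-17) by edgeR. The 8 h call was lost without FGF6 replicate 3 (log2 -0.14, adjusted p = 0.108). Of its 1209 exonic bases, 85 also lie in *Polr2b* on the opposite strand, and the strand setting of the counting is not given in the sources used here. The other 9 genes share no exonic base with another gene.

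*Igfbp2* (ENSMUSG00000039323, chr1:72824503-72852474, plus strand), a binding protein linked to adipose growth, was the binding protein gene with the fewest reads. It neighbours *Igfbp5*, and the pair face each other tail to tail across 5457 bases. Vehicle libraries held 1.72, 1.58 and 1.94 CPM at 4 h and 0.981, 0.211 and 0.673 CPM at 24 h. FGF6 libraries held 1.89, 1.498 and 1.62 CPM at 4 h and 0.438, 0.357 and 0.587 CPM at 24 h. The groups overlapped at all 3 times, and the log2 fold change was -0.06, 0.08 and -0.39 (SE 0.268, 0.284 and 0.403, adjusted p = 0.854, 0.804 and 0.395, edgeR). The vehicle libraries at 24 h rested on 7 to 28 reads and the FGF6 libraries on 10 to 16. Without vehicle replicate 2 of 24 h, the library with 7 reads, the value was -0.82 (adjusted p = 0.0378). *Igfbp2* dropped from 4 to 24 h in both arms, 2.88-fold in vehicle and 3.6-fold in FGF6 (adjusted p = 0.000177 and 3.2e-05, edgeR). *Igfbp1*, the liver binding protein, had no read in any library, and *Igfals* and *Igfbpl1* were too low to test.

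Differences of the FGF6 effect between times were tested as edgeR interactions. Between 4 and 8 h it differed for 5 of the 10 genes (30.6% of all genes tested): *Igf1*, *Igfbp3* and *Igfbp4* fell further, and *Igf1r* and *Insr* moved by 0.18 and -0.21, which passed narrowly (adjusted p = 0.0445 and 0.044). Those last calls were lost under several alternatives, and the count fell to 3 without FGF6 replicate 3 of 4 h, FGF6 replicates 1 or 2 of 8 h, or vehicle replicate 3 of 8 h, in turn. Between 8 and 24 h it differed for 6 (45.1% of all genes), namely *Igf1*, *Igf1r*, *Igfbp4*, *Igfbp5*, *Igfbp6* and *Igfbp7*. Between 4 and 24 h it differed for 5 (53.5% of all genes), namely *Igf1*, *Igfbp4*, *Igfbp5*, *Igfbp6* and *Igfbp7*. The last of these shares over all genes is above the 5 of 10 found here. The 3 contrasts share libraries. Without vehicle replicate 3 of 24 h the counts of genes called at 24 h and in the last 2 of these contrasts remained 6, 6 and 5.

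The group also differed between times within each arm. In vehicle, 9 of the 10 genes changed from 4 to 24 h (60.8% of all genes): *Igf1*, *Igf2r*, *Igfbp4*, *Igfbp5* and *Igfbp6* rose, and *Igf1r*, *Igfbp2*, *Igfbp3* and *Igfbp7* fell. The rise of *Igf2r* was small (log2 0.12, adjusted p = 0.00502, edgeR) and was lost with library totals alone (log2 0.07, adjusted p = 0.0943) and without vehicle replicate 2 or 3 of 24 h (log2 0.09 and 0.07). In FGF6, 9 of the 10 changed (71.2% of all genes), with *Igf2r* and *Igfbp5* up and 7 genes down. *Insr* was the gene that did not pass in either arm (adjusted p = 0.272 and 0.615).

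To compare levels between genes, CPM were divided by exon length in kilobases (FPKM here, over the union of annotated exons). *Igfbp7* ranked first in all 6 groups, from 608 FPKM in vehicle at 4 h to 129.6 FPKM in FGF6 at 24 h. In vehicle at 24 h the order was *Igfbp7*, *Igfbp6* (103 FPKM), *Igf2r* (42.9), *Igfbp4* (22.7), *Igfbp5* (4.93), *Igf1r* (3.13), *Insr* (2.75), *Igf1* (1.49), *Igfbp3* (0.672) and *Igfbp2* (0.337). In FGF6 at 24 h *Igf2r* (50.4 FPKM) stood above *Igfbp6* (42.5), *Igfbp4* (2.91) ranked sixth behind *Igfbp5* (4.22) and *Igf1r* (3.34), and *Igf1* (0.0343) was last. Neighbours in these orders overlapped only at 8 h: *Igfbp3* with *Igfbp5*, *Igfbp5* with *Igf1r* and *Igf1* with *Igfbp2* in vehicle, and *Igf1r* with *Igfbp4* in FGF6. Bulk libraries cannot tell fewer cells that make a transcript from less transcript per cell.

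Summed over the 6 binding proteins, transcript per exon length was 723 ± 15.7 FPKM (SD, n = 3) in vehicle at 4 h and 586 ± 45.1 in FGF6. At 8 h the sums were 588 ± 7.71 and 499.5 ± 45.9. At 24 h they were 565 ± 43.5 and 179.8 ± 15.3, from libraries spanning 529 to 613 and 169.8 to 197 FPKM. *Igfbp7* set most of the sum, with 84.1% in vehicle at 4 h and 72.0% in FGF6 at 24 h. *Igfbp6* held 18.2% and 23.6% at 24 h in vehicle and FGF6, *Igfbp4* 4.03% and 1.62%, and *Igfbp5* 0.883% and 2.36%. With 3 libraries against 3, an exact permutation test of any single value cannot go below p = 0.1, and none was run on the sum.

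**Figure D3:**
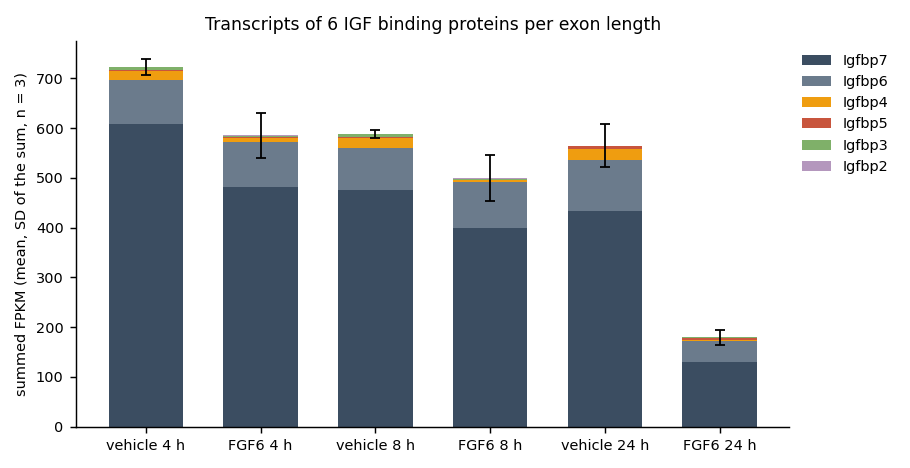
Mean FPKM of 6 IGF binding proteins stacked by gene (y axis from 0) in the 6 groups, with bars for the SD of the sum over 3 libraries. The sum is 565 FPKM in vehicle and 179.8 FPKM in FGF6 at 24 h, and *Igfbp7* is the largest share in every group.

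The rest of the IGF axis was read from lists of 55 genes in 7 roles, of which 48 could be tested and 38 are not among the 10 genes above. Of those 38, 16 were higher and 13 lower at 4 h, 16 and 17 at 8 h, and 16 and 17 at 24 h. Over all genes 28.6% were higher and 34.2% lower at 4 h, 32.4% and 38.4% at 8 h, and 35.9% and 37.9% at 24 h. Their median log2 fold change was -0.0010, 0.0022 and -0.05, against -0.05, -0.05 and -0.02 over all genes.

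Enzymes that cut binding proteins, and their inhibitors, moved in opposite directions at 24 h: all 4 proteases were lower and both stanniocalcins higher. Over all genes, 37.9% were lower and 35.9% higher at 24 h. Of these 6 genes, 3 were higher and 2 lower at 4 h (28.6% and 34.2% of all genes). At 8 h, 2 were higher and 3 lower (32.4% and 38.4%). *Pappa* encodes pappalysin, which cuts IGFBP4 and IGFBP5. It held 11.3, 13.2 and 12.9 CPM in vehicle at 24 h and 0.912, 0.429 and 0.734 CPM in FGF6 (log2 -4.17, adjusted p = 1.28e-17, edgeR). At 4 h its groups overlapped, with 18.7 to 19.8 CPM in vehicle and 17.7 to 21.6 CPM in FGF6. *Pappa2*, whose product cuts IGFBP3 and IGFBP5, was lower by -3.31 at 8 h and -3.19 at 24 h, at 6.31, 7.33 and 7.65 CPM in vehicle and 0.912, 0.679 and 0.734 CPM in FGF6 at 24 h. *Adam12*, a membrane metalloprotease, was lower by -3.22 at 24 h (19.7 to 2.11 CPM), and the serine protease gene *Htra1* by -1.27 (44.6 to 18.5 CPM). Mean *Adam12* was 40.8 CPM in vehicle and 45.4 CPM in FGF6 at 4 h, and 27.9 and 27.2 CPM at 8 h. *Stc1*, which encodes a pappalysin inhibitor, held 1.61, 1.45 and 1.60 CPM in vehicle at 24 h and 18.5, 17.2 and 15.7 CPM in FGF6 (log2 3.47, adjusted p = 2.27e-18, edgeR). It was already higher at 4 h and 8 h, by 1.46 and 2.06. *Stc2*, the other stanniocalcin, was higher by 1.38 at 24 h (1.21 CPM in vehicle and 3.18 CPM in FGF6). Mean *Stc2* was 4.73 CPM in vehicle and 8.07 CPM in FGF6 at 4 h, and 1.945 and 3.30 CPM at 8 h, so both arms were lower at 24 h than at 4 h. In each of these genes named at 24 h the groups did not overlap.

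**Figure D4:**
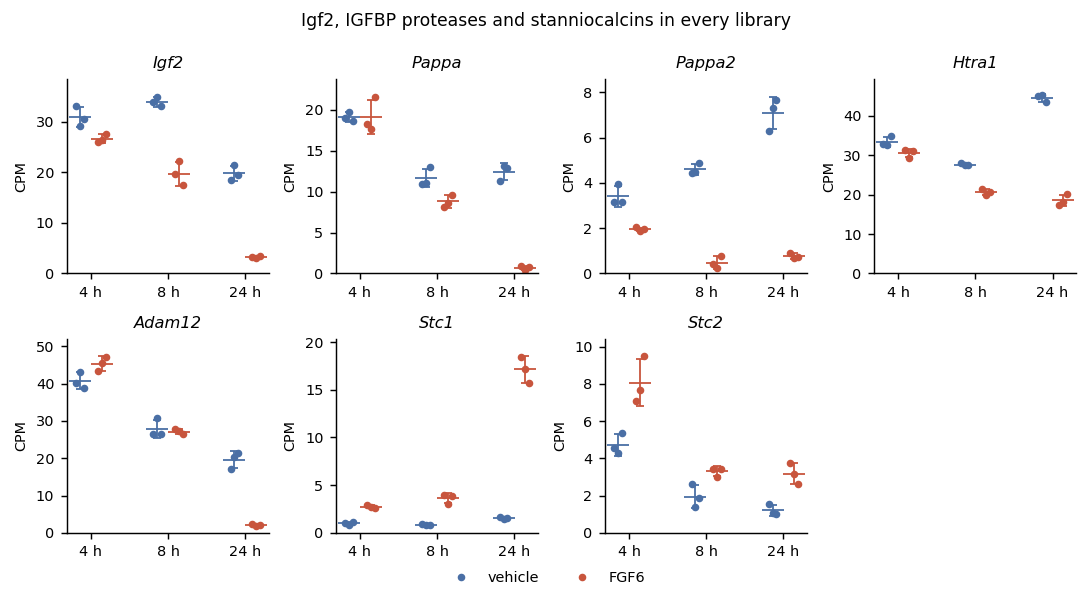
CPM (y axis from 0, a different scale in each panel) of *Igf2*, 4 IGFBP protease genes and both stanniocalcin genes in every library at 4, 8 and 24 h, vehicle in blue and FGF6 in red, with the mean and SD of 3 libraries. At 24 h FGF6 libraries lie below vehicle for *Igf2* and the proteases and above vehicle for *Stc1* and *Stc2*.

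Receptor adaptors and the PI3K-AKT arm, which carry the signal inside the cell, went both ways. Of 17 tested, 5 were higher and 6 lower at 4 h, 6 and 8 at 8 h, and 8 and 8 at 24 h, with medians of -0.03, -0.03 and -0.05. At 4 h these counts lay close to the 28.6% and 34.2% of all genes (32.4% and 38.4% at 8 h, 35.9% and 37.9% at 24 h). *Irs2*, an adaptor of both receptors, was lower by -1.42 at 4 h (46.3 to 17.2 CPM). *Pik3r1*, the main regulatory subunit of PI3K, was lower by -1.65 at 8 h and by -2.51 at 24 h, when vehicle held 219, 239 and 233 CPM and FGF6 41.6, 38.8 and 40.8 CPM (adjusted p = 2.33e-24, edgeR). Its means at 4 h were 137.4 CPM in vehicle and 75.8 CPM in FGF6. *Pik3r3*, another regulatory subunit, was lower at every time by -1.15, -1.12 and -1.14. *Gab1*, a docking protein, was lower by -1.09 at 8 h and -1.28 at 24 h. *Irs3* counted among the lower genes and had at most 3 reads in each FGF6 library at 8 and 24 h, so its fold is not given. *Irs4*, with at most 4 reads in any library, could not be tested.

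Inhibitors of receptor signalling included 6 higher and 4 lower genes at 4 h of 11 tested, 7 and 4 at 8 h, and 5 and 3 at 24 h, with medians of 0.10, 0.19 and 0.06. The shares higher and lower over all genes were 28.6% and 34.2%, 32.4% and 38.4%, and 35.9% and 37.9%. *Socs2* and *Socs3* encode feedback inhibitors of cytokine and growth factor receptors. *Socs2* was higher by 1.22 at 4 h (25.4 to 59.0 CPM) and 1.67 at 8 h, and *Socs3* by 1.20 at 4 h (63.4 to 145 CPM). Of 3 *Igf2* mRNA binding protein genes, 2 were higher at 4 h, and 1 was higher and 1 lower at 8 and at 24 h, with medians of 0.32, 0.05 and -0.05.

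**Figure D5:**
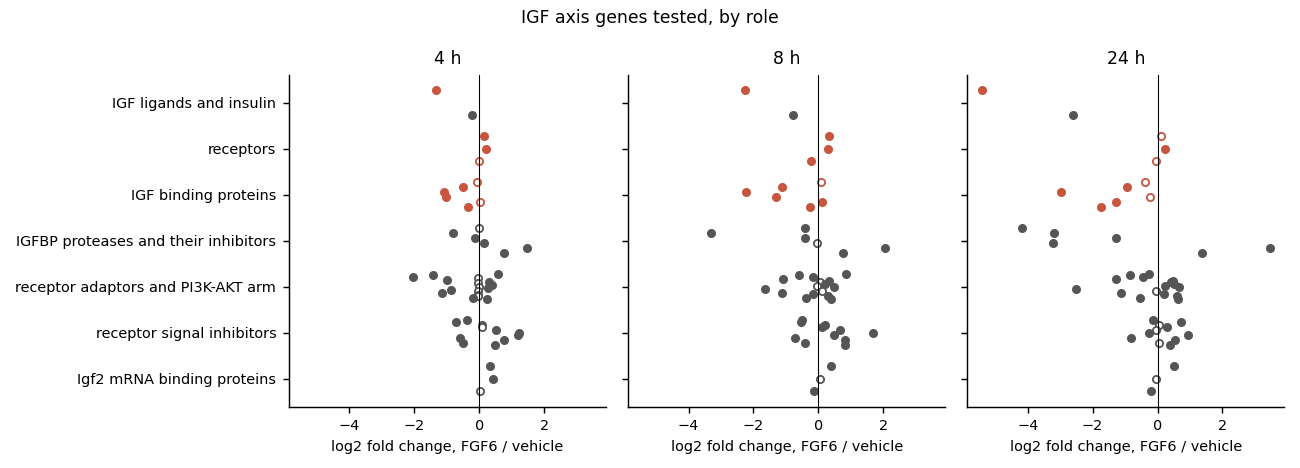
Log2 fold change of FGF6 against vehicle (x axis) for IGF axis genes by role (rows) at 4, 8 and 24 h, the 10 genes of the group in red and other list genes in grey, filled where the adjusted p passed and open where it did not. *Irs3* is left out at 8 and 24 h, where its FGF6 libraries held at most 3 reads. The leftmost points at 24 h are *Igf1* (-5.42) and *Pappa* (-4.17), and the rightmost is *Stc1* (3.47).

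For the 3 genes of the group with the widest range over the 6 group means, the tested genes with the closest pattern were named by the root mean square difference of centred log2(CPM + 0.1) over those 6 means. *Igf1*, with a range of 5.07, was nearest to *Notch3* (0.219), *Apba1* (0.232) and *C130074G19Rik* (0.268). *Igfbp4*, with a range of 2.95, was nearest to *Dcxr* (0.0998), *Adm* (0.103) and *Lfng* (0.104). *Igfbp3*, with a range of 3.65, was nearest to *Tnfrsf25* (0.35), *F7* (0.36) and *Gm13372* (0.423), a looser likeness than for *Igfbp4*. *Notch3* fell from 91.3 to 4.25 CPM and *Adm* from 121.6 to 13.4 CPM at 24 h, vehicle against FGF6. In FGF6 at 24 h *C130074G19Rik* held 0 to 2 reads (0.0366 CPM) and *F7* 1 to 2 reads (0.0482 CPM). The added 0.1 therefore sets most of their value in that group. These values describe 6 means from the same libraries and carry no test.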

How the data were processed

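RNA was sequenced from 18 libraries of immortalized murine brown preadipocytes in 6 groups (vehicle or FGF6 at 4, 8 and 24 h, 3 libraries each), grouped by the treatment and time given in the labels. The authors aligned reads to GRCm38 with STAR and counted them with Subread featureCounts, and deposited raw counts per gene with no normalization. Versions, strand setting and the treatment of reads with several matches are not given in the sources used here. Of the 48023 gene identifiers, 98.52% were found in GENCODE M21, which gave symbols, coordinates and exon lengths.

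The filter on low counts was filterByExpr of edgeR, given the group of each library. edgeR 4.0.16 (R 4.3.3) with TMM factors fitted a quasi-likelihood model of the 6 group means over all 18 libraries, and p-values were adjusted by Benjamini-Hochberg over all 15071 genes. The standard error is the log2 fold change divided by the square root of F. CPM are counts scaled to the TMM-adjusted library total. The test was run on simulated counts for the 24 h comparison alone. Log2 changes of 0.5, 1 and 2, in either direction, were recovered in 82.0%, 77.4% and 98.6% of 61, 62 and 74 genes. There were 10 false calls. The simulation changed far fewer genes than the 11115 called in the data at 24 h, so it cannot check the TMM factors under so wide a change. The alternatives were library totals alone, RLE factors, no filter, at least 10 counts in every library, a replicate block, the libraries of 1 time alone, limma 3.58.1 with voom (the study's method), DESeq2 1.42.0, an adjusted p under 0.25 (the study's threshold), a 2-fold minimum, and leaving out each library.

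The members and the gene lists were chosen with earlier results of these data known. Besides the 10 genes, the text names list genes that were called, at least 2-fold changed, without overlap and at a mean of at least 1 CPM, up to 15 per time, any list gene that could not be tested, and 3 genes of like pattern for each of 3 members. *Irs3*, *Col1a1*, *Cd68*, *Csf1r*, *Myog*, *Ucp1* and *Cdh5* were singled out after their values were seen. Depth limits low genes: 3 reads correspond to 0.0905 to 0.126 CPM.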

Additional observations from a re-analysis of the deposited data

Results flagged for a closer look

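The effect of FGF6 on a gene, as a log2 fold change against vehicle, differed between times by the edgeR interaction test in 16 of 30 comparisons (10 genes, 3 pairs of times). Of the 10 genes, 5 differed from 4 to 8 h (30.6% of all genes), 6 from 8 to 24 h (45.1%) and 5 from 4 to 24 h (53.5%). A negative value means a lower fold change at the later time. For *Igf1* the 8 h effect minus the 4 h effect was -0.92, the 24 h effect minus the 8 h effect was -3.17, and 24 h minus 4 h gave -4.09. For *Igfbp4* the same differences were -1.16, -0.73 and -1.89. *Igfbp3* differed by -0.61 between 4 and 8 h. *Igfbp6* differed by -1.39 between 8 and 24 h and by -1.29 between 4 and 24 h, and *Igfbp7* by -1.49 and -1.41. *Igfbp5* went the other way, by 1.07 between 8 and 24 h and 0.81 between 4 and 24 h. *Igf1r* differed by 0.18 between 4 and 8 h and by -0.24 between 8 and 24 h, and *Insr* by -0.21 between 4 and 8 h. The *Igf1r* and *Insr* differences between 4 and 8 h were the least secure, with adjusted p = 0.0445 and 0.044 by edgeR.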

How the results depend on the processing

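The direction of *Igf1*, *Igfbp3* and *Igfbp4* in FGF6 against vehicle was kept at all 3 times under every alternative that tested them, and their calls were lost only where a 2-fold minimum was added (*Igfbp3* at 4 and 24 h). With adjusted p under 0.05 and at least 2-fold, 3 genes of the group were called at 4 h (7 without the minimum), 4 at 8 h (9), 1 for the difference between 4 and 8 h (5) and 2 for vehicle from 4 to 24 h (9). The minimum cut the calls over all genes as well. Genes called lower went from 34.2% to 6.38% of all genes at 4 h and from 38.4% to 10.9% at 8 h. For the difference and for vehicle, the share of all genes past the 2-fold minimum was not counted. With at least 10 counts in every library, which drops *Igf1* and *Igfbp2*, 3 were called for the difference between 4 and 8 h. Leaving out 1 library at a time gave 3 to 5 for that difference.

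The values that changed sign had not passed the test. With library totals alone, *Igfbp6* at 4 h was -0.082, and the differences of effect were 0.0078 for *Igf2r* (8 to 24 h), 0.0283 for *Igf1r* and 0.0551 for *Insr* (both 4 to 24 h). *Insr* at 4 h was 0.0083 with RLE factors and with DESeq2, 0.012 with the minimum of 10 counts and 0.021 with the 4 h libraries alone. With no filter and with the minimum of 10 counts, the difference for *Igf2r* between 4 and 24 h was -0.0042 and -0.030, and *Insr* in FGF6 from 4 to 24 h was -0.014 and -0.016. Leaving out 1 library gave ranges that cross 0 at 4 h for *Insr* (-0.0703 to 0.0311), *Igfbp2* (-0.14 to 0.0382) and *Igfbp6* (-0.0063 to 0.0872), at 8 h for *Igfbp2* (-0.0893 to 0.30), and at 24 h for *Igfbp2* (-0.82 to 0.21) and *Insr* (-0.034 to 0.0048). The differences did so for *Igfbp2* (-0.0261 to 0.36) and *Igfbp7* (-0.0072 to 0.17) between 4 and 8 h, *Igfbp2* between 8 and 24 h (-0.94 to 0.081), and *Igf2r* (-0.02 to 0.0599), *Insr* (-0.0836 to 0.0154) and *Igfbp2* (-0.78 to 0.25) between 4 and 24 h. The cause was not tested.

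Library totals alone shifted the median of all genes at 4 h from -0.05 to -0.15 and the higher share of calls from 45.54% to 33.3%. Same-numbered libraries correlated at -0.0255 to 0.0515, so no shared deviation by number was seen. The labels do not say whether the numbers mark a shared culture or harvest, and these values cannot tell. A replicate block called 7, 9 and 6 genes of the group at 4, 8 and 24 h, as without it, and 9465, 10686 and 11116 of all genes against 9460, 10664 and 11115.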
